A study of Mus musculus with 19 samples.

Results

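The endometrium of 8 libraries whose column prefix holds the letters SVX was compared with that of the 8 remaining mated libraries, whose prefix does not. The first set comprised SVX1 to SVX4 and SVX_VAS1 to SVX_VAS4, and the second INT1 to INT4 and VAS1 to VAS4. These 16 libraries are the mated ones among 19 in all, and the other 3 come from females in estrus and entered only the filter, the scaling and the estimate of the spread. Every mated female was a wild-type C57Bl/6 mouse aged 8 to 14 weeks that had been paired with a BALB/c male, and tissue was taken on day 3.5 post coitum (pc). The males differed in surgery, being intact, vasectomised, lacking the seminal vesicles, or both. Read by prefix, the split is the seminal vesicle factor, and the 2 strata are SVX against INT (no VAS in the prefix) and SVX_VAS against VAS.

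The sample titles do not say the same as the prefixes, so groups are named here by prefix and carry no surgery name. By title, the SVX columns belong to vasectomised matings, the SVX_VAS columns to matings without seminal vesicles, and the VAS columns to matings with both changes. Under the titles, the same split would set matings with exactly 1 surgery against matings with none or both, and the seminal vesicle factor would be the split by VAS in the prefix. The INT columns are intact matings in both readings. The study describes its samples as pooled, with a pool size that is not given in the sources used here, and nothing states that the replicates are separate experiments, so each p-value measures the spread between these libraries.

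Seminal vesicles supply most of the volume of mouse seminal plasma and the proteins that form the copulatory plug, whereas vasectomy removes sperm from the ejaculate and so leaves no embryo. Mating brings leukocytes into the uterus, and among the resident lymphocytes of the mouse endometrium are γδ T cells, which use a T cell receptor of γ and δ chains and which can produce interleukin-17. By day 3.5 pc the tissue is under progesterone, luminal secretory genes that estrogen drives are normally shut down, and the stroma divides in preparation for implantation. A T cell receptor signals through the CD3 chains and the adaptor LAT, and Src-family kinases such as LCK and BLK start that signal.

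Library totals were 14201095 to 17420572 counts in INT, 14040286 to 18258677 in VAS, 12661266 to 13799614 in SVX and 13789824 to 20525568 in SVX_VAS. Totals did not separate the 8 from the 8 (exact permutation test of the means, two-sided p = 0.542), but every SVX total lay below every INT total (exact p = 0.0286, the smallest that 4 against 4 allows, or 0.429 after Benjamini-Hochberg adjustment over 24 such tests). VAS2 and VAS3 stood apart from all other mated libraries. Their 10 most abundant genes held 1.11% and 1.07% of counts, against 3.94% to 5.81% in the others, and Malat1, a nuclear non-coding RNA, was at 548 CPM (counts scaled to the size of the library) in each, against 9931 to 14054 CPM. On the first component of log2 CPM, with 70.9% of the variance, they scored 198 and 191, and the other 14 mated libraries scored between -31.6 and -21.3. The exact permutation test of this score between the 8 and the 8 gave p = 0.0465, or 0.429 with the same adjustment, and without VAS2 and VAS3 the first component of the remaining 14 gave p = 0.190. Results are therefore given with and without these 2 libraries.

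**Figure D1:**
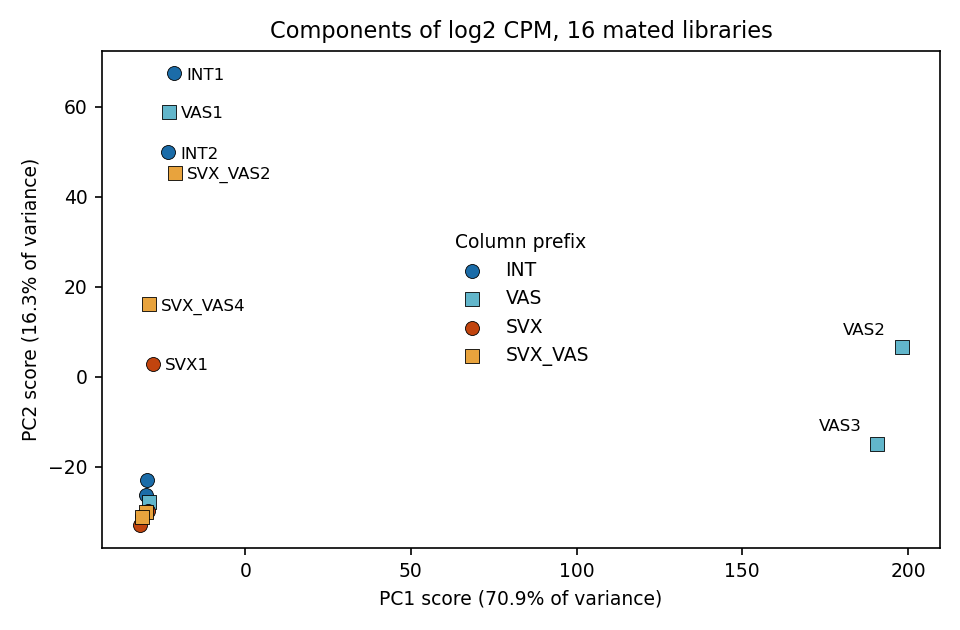
Scores of the 16 mated libraries on the first 2 principal components of log2 CPM, with the share of variance on each axis and 1 point per library, coloured by prefix. VAS2 and VAS3 lie at 198 and 191 on the first axis, and the second axis (16.3%) carries INT1, VAS1, INT2 and SVX_VAS2 between 45.3 and 67.4, from both sides of the comparison.

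No gene reached an adjusted p (Benjamini-Hochberg, FDR) of at most 0.05 together with the 1.5-fold change that the study's methods require, in the contrast of the SVX prefixes with the others (edgeR quasi-likelihood test, 0 of 17222 genes, 0%), and none passed at any fold. The lowest FDR was 0.0695, for Sphkap. At an unadjusted p under 0.05 there were 1970 genes (11.4%), of which 1326 (7.7%) were lower and 644 (3.74%) higher with SVX in the prefix, and these shares are the background for the counts given further on. Without VAS2 and VAS3, 0 of 16949 genes passed the FDR (0%), with 1674 (9.88%) at an unadjusted p under 0.05, 1065 (6.28%) lower and 609 (3.59%) higher. SVX against INT gave 0 passing genes (0%) and 749 at an unadjusted p under 0.05 (4.35%), 3.56% lower and 0.79% higher. SVX_VAS against VAS gave 0 (0%) and 2520 (14.6%), 7.71% lower and 6.93% higher. Without VAS2 and VAS3 in the fit these totals were 1013 (5.98%) and 941 (5.55%).

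Other tools made calls with the same counts. DESeq2 called 20 genes in the 8 against 8, 15 lower and 5 higher, and 11 of the 15 lower and all 5 higher are described in what follows (the other lower ones were Zan, Itprid1, Podnl1 and Mybpc1). limma-voom called 1052, of which 1029 were higher, and in 98.6% of those VAS2 and VAS3 were the 2 lowest of the 16 libraries, against 28.0% of all genes tested. Only 17.0% of the limma-voom calls were protein-coding genes, against 79.7% of the genes tested. Without VAS2 and VAS3, limma-voom called 0 genes and DESeq2 called Sphkap alone. Within the edgeR test 1 library mattered most, since leaving out VAS4 gave 113 calls, 75 higher and 38 lower, with 15 of the 20 genes of smallest p among them. In that fit the VAS group is VAS1, VAS2 and VAS3, and the part of VAS2 and VAS3 in these calls was not tested. A direction given below is therefore a description of these libraries, given with the FDR of the edgeR test.

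Of the genes lower with SVX in the prefix, the one with the smallest p was Sphkap, which encodes an anchoring protein for protein kinase A. It read 10.3, 9.83, 6.79 and 4.27 CPM in INT1 to INT4 and 7.16, 5.04, 10.6 and 4.87 CPM in VAS1 to VAS4. With SVX in the prefix it read 3.19, 2.91, 3.07 and 3.08 CPM in SVX1 to SVX4 and 2.08, 2.61, 3.16 and 2.35 CPM in SVX_VAS1 to SVX_VAS4. All 8 libraries with the prefix lay below all 8 without it, at 2.81 ± 0.416 CPM against 7.35 ± 2.58 CPM (SD, n = 8 each), for a logFC (log2 fold change, SVX prefixes minus the others) of -1.39 (SE 0.20, edgeR FDR 0.0695). Its logFC was -1.34 in SVX against INT, -1.44 in SVX_VAS against VAS and -1.29 without VAS2 and VAS3 (edgeR FDR 0.140). The FDR reached 0.05 by DESeq2 (7.14e-06), by limma-voom (0.0332), in an edgeR design with only 2 mated groups of 8 (0.0288), in an additive edgeR design (0.0355), and when INT4 or VAS4 was left out of the edgeR fit (0.0108 and 0.0136). It did not in the edgeR fits with the replicate block (0.313), with only the mated libraries (0.178), with a filter of 1 CPM (0.0814) or without any of the other 14 libraries in turn (up to 0.294), nor with limma-voom without VAS2 and VAS3 (0.469).

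The next smallest p was that of Blk, the Src-family kinase of B cells and of γδ T cells, which read 5.52, 5.73, 3.76 and 3.08 CPM in INT and 3.61, 9.28, 4.37 and 1.77 CPM in VAS. It read 1.40, 1.02, 0.512 and 1.43 CPM in SVX and 0.773, 2.27, 1.98 and 1.69 CPM in SVX_VAS. SVX and INT did not overlap, while VAS4 fell within the SVX_VAS range, and the logFC was -1.78 (SE 0.32, edgeR FDR 0.386). Cd3e, a signalling chain of every T cell receptor, read 2.57, 2.84, 2.40 and 3.57 CPM in INT, 1.92, 4.67, 3.81 and 1.2003 CPM in VAS, 1.01, 1.18, 0.512 and 1.003 CPM in SVX, and 0.918, 1.55, 1.65 and 0.883 CPM in SVX_VAS. Here too every SVX library was below every INT library, and VAS4 was within the SVX_VAS range (logFC -1.41, SE 0.29, edgeR FDR 0.404). The highest value of both genes was that of VAS2.

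Lat, the adaptor that carries the T cell receptor signal inward, ranged from 1.26 to 2.61 CPM with the prefix (median 1.96) and from 2.12 to 6.34 CPM without it (median 4.42), with a logFC of -1.07 (SE 0.22). Cd163l1, a scavenger receptor found on γδ T cells, ranged from 3.38 to 9.98 CPM (median 6.88) against 7.63 to 33.4 CPM (median 15.9), with a logFC of -1.40 (SE 0.29). Bcl11b, a transcription factor of the T cell lineage, ranged from 1.22 to 3.30 CPM (median 1.59) against 2.40 to 6.39 CPM (median 3.74), with a logFC of -1.03 (SE 0.22). All 3 genes had an edgeR FDR of 0.404, and in each the SVX and INT libraries did not overlap. Leaving out VAS2 and VAS3 made their logFC smaller, at -0.69 for Lat, -1.02 for Cd163l1 and -0.72 for Bcl11b, and that of Blk -1.37 (edgeR FDR 0.490 each). Cd3e then fell under the filter of 3 CPM in 3 libraries, and with a filter of 1 CPM its logFC was -0.99 (SE 0.24, edgeR FDR 0.481). Among the mated libraries Blk, Cd3e and Lat reached 3 CPM only without the prefix, and Bcl11b in only 1 library with it, so these 4 passed the filter through the side where they were high. VAS2 held the highest value of Blk, Cd3e, Lat, Cd163l1 and Bcl11b. Against VAS1 and VAS4 alone, SVX_VAS had a logFC of -0.70 for Blk, -0.57 for Cd163l1, -0.27 for Bcl11b and -0.16 for Lat, while SVX against INT had -2.04, -1.48, -1.18 and -1.22 in the same order.

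The other lower genes among the 10 of smallest p were Cadps (logFC -1.40), a factor for the release of dense-core vesicles, Tmem221 (-0.66), H2-Q7 (-0.41), a non-classical MHC class I gene, and Lbh (-0.34), a transcription cofactor, each with an edgeR FDR of 0.404. H2-Q7 has near-identical neighbours in its gene family, so its counts are uncertain. Cadps and Tmem221 were lower mainly in the stratum with VAS in the prefix, by logFC -2.40 and -1.08 in SVX_VAS against VAS, and -0.39 and -0.24 in SVX against INT. Among the mated libraries Cadps reached 3 CPM only in VAS1, VAS2 and VAS3, so it passed the filter through the side where it was high, and without VAS2 and VAS3 it had a logFC of -1.38 at the filter of 1 CPM (edgeR FDR 0.481). The difference between the strata did not pass the FDR for Cadps or Tmem221 (edgeR interaction FDR 0.697).

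**Figure D2:**
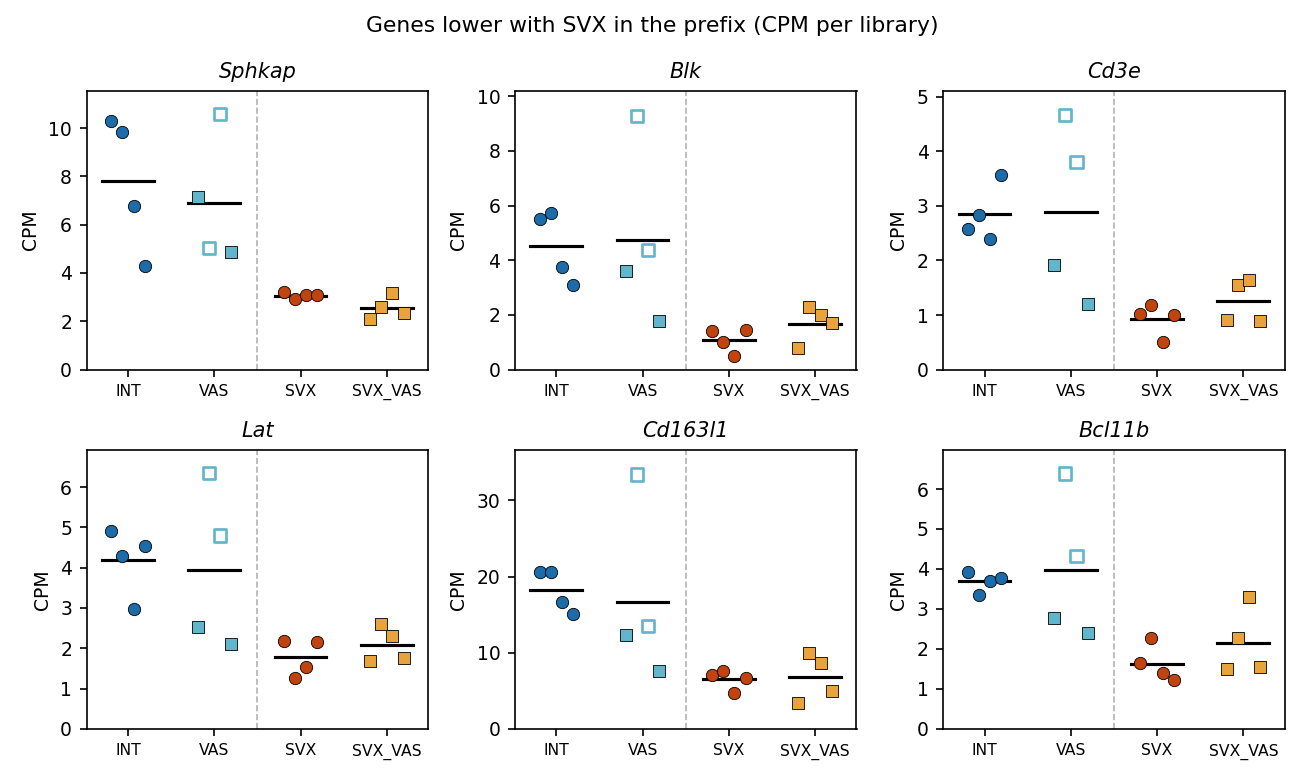
CPM per library (linear axis from 0) of 6 genes among those of smallest p that were lower with SVX in the prefix, by prefix group, with a black line at the mean of each group of 4, open squares for VAS2 and VAS3, and a dashed line between the prefixes without and with SVX. The Sphkap points of SVX and SVX_VAS lie between 2.08 and 3.19 CPM, under the lowest point without the prefix at 4.27 CPM, whereas VAS4 reaches into the range of SVX_VAS in the other 5 panels.

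The promoters of 3 of these genes are shown as the sequence next to the start of the gene that separated the 8 from the 8 and of a pair of T cell genes among the 10 lower genes of smallest p. They are the 250 bases before the start of transcription in RefSeq on GRCm38.p6, read 5′ to 3′ on the gene's strand, with GGTCA, the single arm of the estrogen receptor element, in capitals on either strand. Sphkap lies on the minus strand at chr1:83408201-83408450, Cd3e on the minus strand at chr9:45009612-45009861, and Lat on the minus strand at chr7:126369569-126369818.
Sphkap: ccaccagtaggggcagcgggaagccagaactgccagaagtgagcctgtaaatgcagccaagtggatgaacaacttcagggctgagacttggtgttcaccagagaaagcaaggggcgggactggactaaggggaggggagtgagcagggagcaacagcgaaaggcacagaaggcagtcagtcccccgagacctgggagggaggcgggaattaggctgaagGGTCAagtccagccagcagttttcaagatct
Cd3e: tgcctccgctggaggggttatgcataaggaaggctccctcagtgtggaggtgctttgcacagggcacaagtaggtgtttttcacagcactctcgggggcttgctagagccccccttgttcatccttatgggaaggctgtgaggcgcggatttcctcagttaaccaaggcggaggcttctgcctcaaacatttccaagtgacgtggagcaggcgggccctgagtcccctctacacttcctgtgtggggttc
Lat: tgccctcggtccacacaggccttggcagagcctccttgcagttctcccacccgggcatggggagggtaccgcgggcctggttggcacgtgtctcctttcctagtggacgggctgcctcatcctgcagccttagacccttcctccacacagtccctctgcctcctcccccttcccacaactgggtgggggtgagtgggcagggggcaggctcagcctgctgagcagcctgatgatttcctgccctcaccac
Promoters of 300 bases (250 before and 50 after the start) were found for 17 of the 20 genes of smallest p, 9 of the 10 lower and 8 of the 10 higher. The full estrogen response element, GGTCA and TGACC with 3 bases between them, was in 0 of the 17 and in 0.07% of 32851 promoters. GGTCA on either strand, which is also part of that element, was in 3 of the lower and 2 of the higher genes and in 40.5% of all promoters. TGTTCT on either strand, the single arm of the element of the progesterone and glucocorticoid receptors, was in 1 gene, Tmem221, and in 19% of all promoters.

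Among the genes higher with SVX in the prefix, Nr4a3 had the largest logFC of the 10 with smallest p. Nr4a3 encodes an orphan nuclear receptor that is induced early by many stimuli. It read 5.22, 2.39, 4.79 and 6.09 CPM in INT and 4.40, 4.57, 5.31 and 13.3 CPM in VAS. With the prefix it read 11.8, 10.9, 15.1 and 7.74 CPM in SVX and 29.9, 6.60, 20.5 and 28.0 CPM in SVX_VAS. SVX and INT did not overlap, VAS4 lay above SVX_VAS2 and within the SVX range, and the logFC was 1.46 (SE 0.32, edgeR FDR 0.404), or 1.29 without VAS2 and VAS3. The separate list of immediate early genes, which does not hold Nr4a3, gave 1 higher (Klf2, logFC 0.47) and 0 lower of 15 tested at an unadjusted p under 0.05.

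Ccn2, a secreted matrix-associated growth factor, ranged from 99.8 to 163 CPM with the prefix (median 129) and from 36.7 to 106 CPM without it (median 72.7), for a logFC of 0.88 (SE 0.21). Il17rb, a receptor chain for interleukin-25, ranged from 219.9 to 435 CPM (median 347) against 128 to 343 CPM (median 159), for a logFC of 0.82 (SE 0.20). Sorl1, a sorting receptor of endosomes, ranged from 327 to 642 CPM (median 551) against 263 to 508 CPM (median 307), for a logFC of 0.60 (SE 0.14). Cbs, the first enzyme in the conversion of homocysteine to cysteine, ranged from 69.1 to 86.5 CPM (median 80.0) against 35.3 to 73.2 CPM (median 56.2), for a logFC of 0.48 (SE 0.12). In each of these the 2 sets overlapped, since INT4 and VAS4 lay above the lowest library with the prefix for all 4 genes, and INT1 did for Il17rb and Sorl1 (edgeR FDR 0.404 each). The direction was the same without VAS2 and VAS3, with logFC of 0.78, 0.67, 0.56 and 0.51 in the same order.

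Siah1a, a ubiquitin ligase, was the only gene of these 10 in which the 8 and the 8 did not overlap. It read 33.96, 32.3, 29.1 and 35.5 CPM in INT, 28.9, 31.4, 27.7 and 34.5 CPM in VAS, 36.4, 37.0, 40.7 and 36.0 CPM in SVX, and 40.2, 38.4, 38.4 and 36.2 CPM in SVX_VAS, for a logFC of 0.26 (SE 0.06, edgeR FDR 0.404), under the 1.5-fold criterion. The remaining 4 were D430036J16Rik, an antisense RNA (logFC 1.19), Nudt19, a coenzyme A hydrolase (0.80), Stx18, a membrane fusion protein of the endoplasmic reticulum (0.56), and Vps37a, a sorting complex subunit (0.22), all with an edgeR FDR of 0.404. In 7 of the 10 higher genes (Siah1a, Stx18, Sorl1, Ccn2, D430036J16Rik, Vps37a and Nudt19) an exon overlaps an exon of a gene on the other strand, compared with 0 of the 10 lower genes and 31.0% of the genes tested. Whether the counting used strand is not given in the sources used here, so reads of these 7 genes and of their overlapping partners may not have been told apart.

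**Figure D3:**
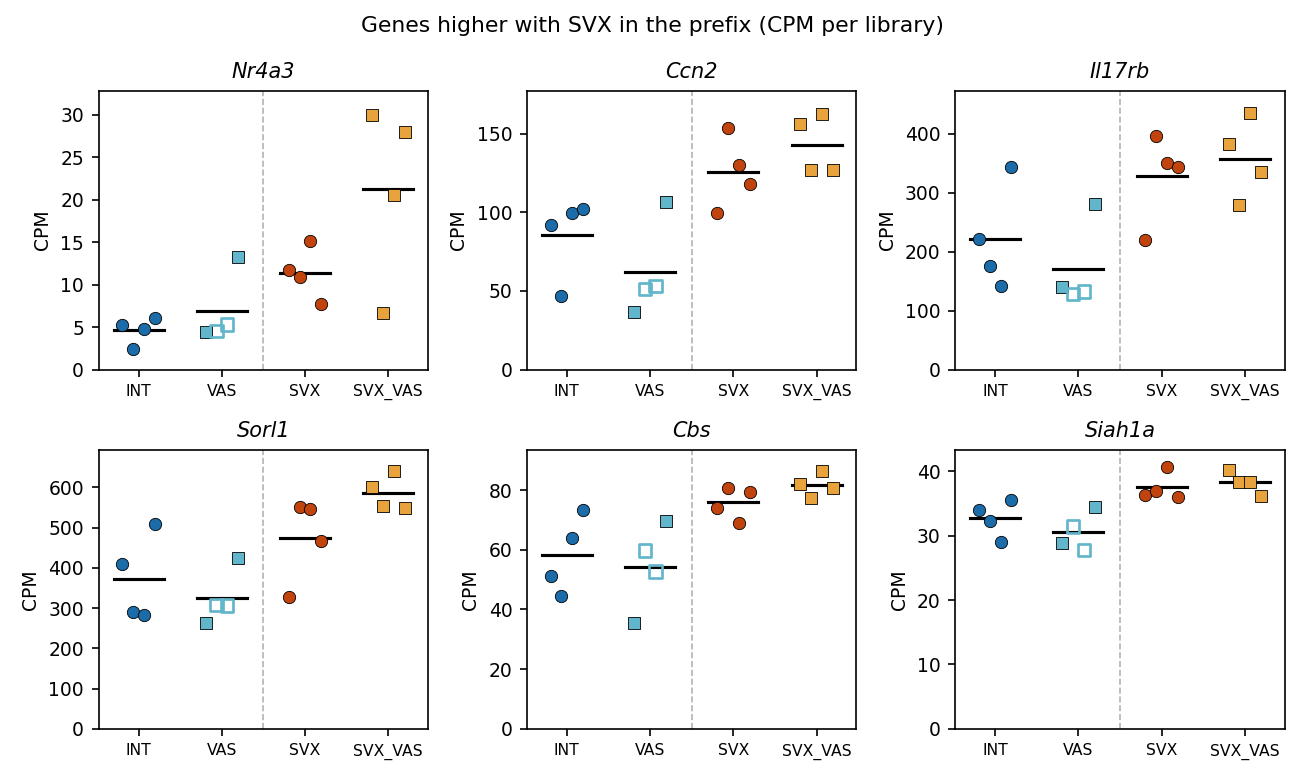
CPM per library (linear axis from 0) of 6 genes of smallest p that were higher with SVX in the prefix, drawn by prefix group with a black line at the mean of each group of 4 and open squares for VAS2 and VAS3. In the Siah1a panel the 8 points right of the dashed line start at 36.0 CPM, above the highest point on its left at 35.5 CPM, and in the Nr4a3 panel SVX_VAS1, SVX_VAS3 and SVX_VAS4 lie between 20.5 and 29.9 CPM.

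Few genes separated the 8 from the 8. Libraries did not overlap for 3 lower genes (0.0174% of those tested), Sphkap, Anapc16 and Exoc3l4, and for 3 higher genes (0.0174%), Siah1a, Nkapd1 and Rpl15-ps2, which makes 6 in all (0.0348%), or 9 (0.0523%) when VAS2 and VAS3 were not considered. These names follow from their values. Anapc16, a subunit of the anaphase-promoting complex, shows how small such a separation can be, at 40.8 to 44.8 CPM with the prefix and 44.9 to 45.9 CPM without it (logFC -0.08, edgeR FDR 0.415). The pseudogene Rpl15-ps2 read 0.233 and 0.188 CPM in VAS2 and VAS3 and 3.74 to 5.25 CPM in the other libraries without the prefix, against 5.52 to 6.91 CPM with it. Within each stratum on its own, 215 genes were lower without overlap in SVX against INT (1.25%) and 383 in SVX_VAS against VAS (2.22%), and 5 were lower in both (0.029%), namely Sphkap, Anapc16, Exoc3l4, the kinase Stk10 and the T cell receptor gene Trbc2. Trbc2 reached 3 CPM only without the prefix, and so passed the filter through the side where it was high. Higher without overlap were 232 genes (1.35%) and 362 genes (2.1%), and 7 in both (0.0406%). Whether the 5 and the 7 exceed what the shares of the single strata give by overlap alone was not tested.

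The strata share no library, and 50 genes (0.29%) had an unadjusted p under 0.05 and a negative logFC in both, against 13 (0.0755%) with a positive logFC in both and 6 (0.0348%) with opposite signs. At that p, 3.56% of all genes were lower in SVX against INT and 7.71% in SVX_VAS against VAS, and 0.79% and 6.93% were higher. Some genes then fall in both strata by overlap alone, and whether the 50 or the 13 exceed that was not tested. Over all genes tested, whatever their p, the logFC had the same sign in both strata in 52.8% (Pearson r = 0.14 across genes, which are not independent replicates), or 66.0% without VAS2 and VAS3 (r = 0.07). The rank correlation (Spearman) moved the other way, from 0.14 with all libraries to 0.43 without VAS2 and VAS3. Some lymphocyte genes are among the 50 and are described here without a count or test of that group. The receptor chain gene Trdc, which encodes the constant part of the δ chain, was at 2.13 to 4.83 CPM (median 3.91) with the prefix and 4.31 to 12.2 CPM (median 6.83) without it, with a logFC of -0.78 in SVX against INT and -1.08 in SVX_VAS against VAS. Blk, Cd3e, Lat, Cd163l1 and Bcl11b are in the same set, as are Itgb7, an integrin chain of mucosal lymphocytes (logFC -0.65 in the 8 against 8), Il18rap, a chain of the interleukin-18 receptor (-1.22), Jaml, an adhesion molecule that costimulates γδ T cells (-0.58), and Cd79b, a B cell receptor chain (-1.34). Tcrg-C1, the constant part of a γ chain, had a logFC of -1.30 in the 8 against 8 and p under 0.05 in SVX against INT alone (logFC -1.77, against -0.83 in SVX_VAS against VAS), and it reached 3 CPM only in INT1, INT2, INT4 and VAS2. Each had an edgeR FDR of 0.404 in the 8 against 8, apart from Blk (0.386), these genes were picked after their values were seen, and Trdc and Jaml overlap an exon on the other strand. The logFC without VAS2 and VAS3 was -0.59 for Trdc, -0.40 for Itgb7, -0.89 for Il18rap, -0.29 for Jaml, -1.27 for Cd79b and -1.14 for Tcrg-C1. Against VAS1 and VAS4 alone, SVX_VAS then had -0.40, -0.24, -0.35, -0.05, -1.05 and -0.50 in the same order.

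The marker list for regulatory and other T cells holds 14 genes, of which 7 passed the filter. At an unadjusted p under 0.05, 3 of the 7 were lower (Cd3e, Cd3g and Cd4) and 0 higher, with a median logFC of -0.21 against 0.00 over all genes tested. Cd3e reached 3 CPM only in INT4, VAS2 and VAS3, and Cd3g and Cd4 in only 1 library with the prefix, so the place of these 3 among the 7 depended on the difference itself and the count is a description. In the fit without VAS2 and VAS3, 1 of 6 was lower, with a median of -0.07. The list median was -0.33 in SVX against INT and -0.20 in SVX_VAS against VAS. That of SVX_VAS against VAS turned to 0.07 when the 2 libraries were left out. Cd3g read 1.47 to 3.96 CPM with the prefix and 2.59 to 8.12 CPM without it (logFC -0.85), and Cd4 1.48 to 3.30 CPM against 1.48 to 4.43 CPM (logFC -0.54). Lck, which natural killer cells also express, was 10.7 to 12.3 CPM with the prefix and 8.09 to 15.7 CPM without it (logFC -0.12, edgeR FDR 0.685). Most genes of the list are near the filter, and with 1 CPM in 3 libraries 13 were tested, 8 of which were lower (Cd3d, Cd3e, Cd3g, Cd4, Cd5, Cd8a, Icos and Il2ra) and 0 higher, with a median logFC of -0.53, against 7.48% of all genes lower. Without VAS2 and VAS3, 3 of 13 were lower at that filter (Cd3e, Cd3g and Cd8a), 12 of 13 had a negative logFC, and the median was -0.25, against 6.71% of all genes. Cd8a, the coreceptor of cytotoxic T cells, had the largest logFC of these at -1.46, or -1.24 without the 2 libraries. In these bulk samples, fewer cells of a type and less RNA per cell cannot be told apart.

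Foxp3, the defining gene of regulatory T cells, read 10.8 to 12.1 CPM in all 8 libraries with the prefix and 11.05 to 12.7 CPM in 6 of the 8 without it. It was at 0.280 CPM in VAS2 and 0 in VAS3, and an exon of it overlaps a gene on the other strand. The summed level of the 14 markers was 97.7 to 162 CPM (median 123) with the prefix and 101 to 186 CPM (median 139) without it, a sum in which Ikzf2 is the largest member with 50.6 to 134 CPM. Of the 12 natural killer cell markers, 0 were lower and 0 higher at an unadjusted p under 0.05, with a median logFC of 0.00 and a summed level of 131 to 221 CPM against 119 to 251 CPM. The 12 macrophage markers tested gave 1 higher (C1qa, logFC 0.24) and 0 lower, and the 12 of dendritic cells and antigen presentation gave 2 lower (Flt3, logFC -0.47, and Xcr1, -0.56). In the fit without VAS2 and VAS3, 0 macrophage genes of 12, 0 dendritic cell genes of 11 and 0 natural killer cell genes of 12 were lower or higher. The B and plasma cell list had 5 of 10 genes tested and 1 lower (Cd79b) in both fits. Whether the T cell list differed from these lists was not tested.

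Estrogen response genes were lower at the median of the 8 against 8 and had medians of opposite sign in the strata. Of 21 genes 18 were tested, 2 lower (Padi2 and Padi4, enzymes that convert arginine to citrulline) and 1 higher (Igf1) at an unadjusted p under 0.05, with a median logFC of -1.01. In SVX against INT 10 of the 18 were lower (3.56% of all genes were) with a median of -2.75, and in SVX_VAS against VAS 0 were lower and 1 higher with a median of 0.40. The 8 against 8 gave 2 lower and 0 higher without VAS2 and VAS3, with a median of -1.07, or 0.53 in SVX_VAS against VAS. The interaction had an unadjusted p under 0.05 in 6 of the 18, against 5.64% of all genes, and an FDR of 0.697 or more (edgeR). These genes were high in single libraries of either side. Ltf, the secreted iron-binding protein lactoferrin, read 2157, 643, 27.4 and 45.3 CPM in INT, 713, 222, 152 and 38.1 CPM in VAS, 273, 33.03, 20.04 and 15.5 CPM in SVX, and 16.7, 2301, 21.0 and 194 CPM in SVX_VAS. The complement gene C3 followed, with 3989 CPM in INT1, 1445 CPM in INT2, 1012 CPM in VAS1 and 4623 CPM in SVX_VAS2, and 124 to 509 CPM in the other 12 libraries.

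Neither set was uniformly high or low in these genes, and the mean log2 CPM of Ltf differed by -1.47 between the 8 and the 8 (exact permutation test, two-sided p = 0.247). The count of 10 in SVX against INT rested on INT1, without which it was 1, and it was 0 with limma-voom and 4 with the replicate number as a block. Of 12 epithelial markers tested, 2 were lower (Krt7, logFC -1.31, and Lamb3, -1.60), and the median logFC was -0.34, or -0.97 in SVX against INT and 0.30 in SVX_VAS against VAS. With VAS2 and VAS3 left out, 2 were lower, the median was -0.65, and that of SVX_VAS against VAS turned to -0.32. The summed level of the epithelial markers was 1141 to 4119.8 CPM (median 1302) with the prefix and 869 to 4203 CPM (median 1321) without it. Their part in the estrogen response values was not tested.

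Cell cycle genes had a lower mean with SVX in the prefix, but none passed the FDR. All 21 proliferation genes were negative, with a median of -0.42, and 5 had an unadjusted p under 0.05 (Bub1, Aurkb, Plk1, Ccnb2 and E2f1), against 7.7% of all genes lower. By stratum, 0 of the 21 were lower at that p in SVX against INT (median -0.19) and 5 in SVX_VAS against VAS (median -0.64). The interaction had an unadjusted p under 0.05 in 0 of the 21 (edgeR). Bub1, a spindle checkpoint kinase, read 22.2, 44.5, 44.9 and 22.3 CPM in INT, 61.1, 29.1, 42.04 and 24.6 CPM in VAS, 40.8, 24.1, 21.1 and 19.1 CPM in SVX, and 21.1, 14.1, 13.4 and 28.9 CPM in SVX_VAS, with a logFC of -0.69 (SE 0.26, edgeR FDR 0.404). Mki67, a marker of dividing cells, was highest in VAS1 at 699 CPM and lowest in SVX_VAS2 at 219 CPM, with a logFC of -0.36 (SE 0.24, edgeR FDR 0.555). The 2 sets overlapped for both genes. Without VAS2 and VAS3, 16 of the 21 had an unadjusted p under 0.05 (6.28% of all genes) and the median was -0.56. In the 8 against 8, leaving out 1 library moved the count of 5 to between 0 (without VAS1) and 14 (without SVX1, the library with the highest Mki67 on its side).

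**Figure D4:**
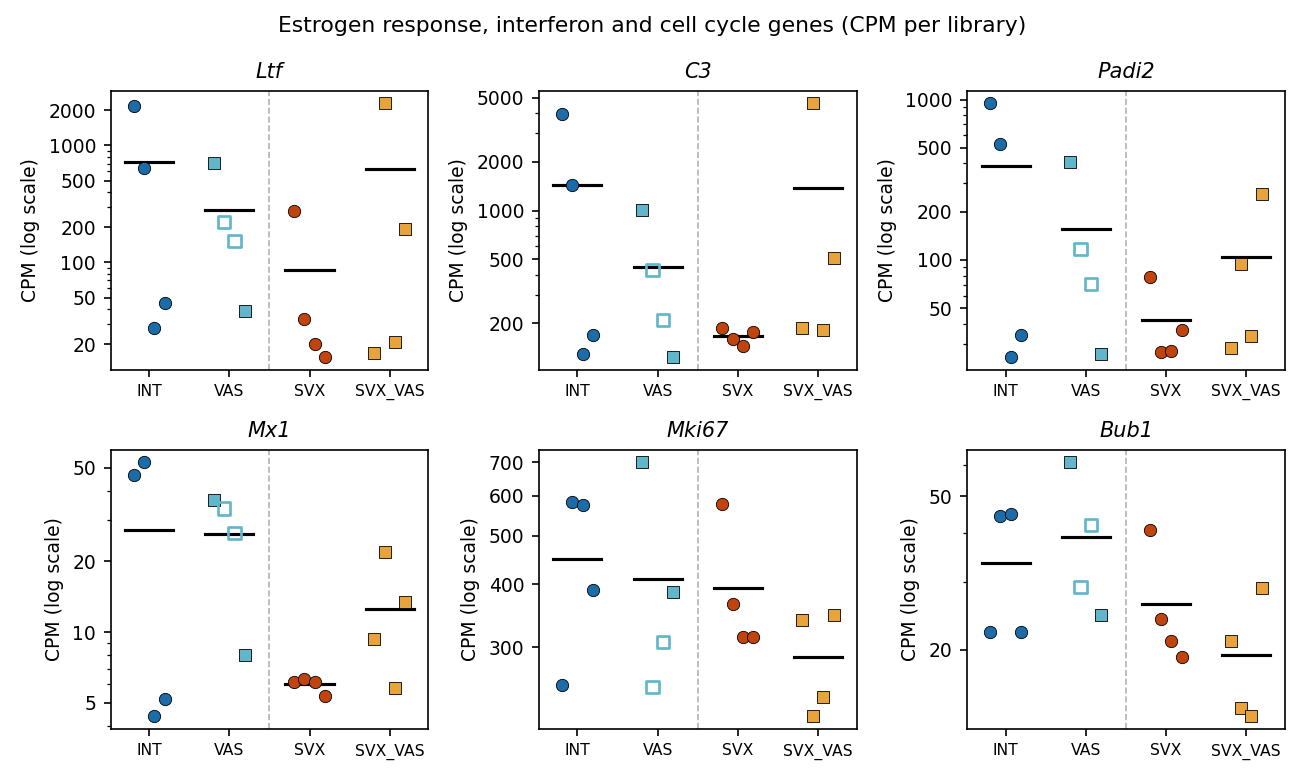
CPM per library (log axis) of 3 estrogen response genes, the interferon-induced Mx1 and 2 cell cycle genes, by prefix group, with a black line at the mean of each group of 4, open squares for VAS2 and VAS3 and a dashed line between the prefixes without and with SVX. Ltf exceeds 600 CPM in INT1, INT2, VAS1 and SVX_VAS2, on both sides of the line, and Mki67 is highest in VAS1 at 699 CPM.

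Interferon-induced genes were also negative as a list in the 8 against 8. All 18 had a negative logFC (median -0.35), and 2 had an unadjusted p under 0.05, the antiviral genes Mx1 (logFC -1.62, SE 0.48) and Oas2 (-0.71, SE 0.30), with edgeR FDR of 0.404 and 0.415. Mx1 was 46.7 and 52.7 CPM in INT1 and INT2, 4.39 and 5.18 CPM in INT3 and INT4, 26.5 to 36.5 CPM in VAS1 to VAS3 and 7.98 CPM in VAS4, while it was 5.37 to 6.29 CPM in SVX and 5.80 to 21.9 CPM in SVX_VAS. SVX libraries lay within the range of INT. The count was 1 of 17 without VAS2 and VAS3 (Mx1), with a median of -0.22, and 1 to 9 when single libraries were left out, the highest without INT3. Of all genes 7.7% were lower, or 6.28% without VAS2 and VAS3. The list median was -0.43 in SVX against INT and -0.16 in SVX_VAS against VAS. Leaving out VAS2 and VAS3 brought the latter to -0.007.

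Progesterone response genes leaned the other way. Of 20 tested, 18 had a positive logFC (median 0.26), with 5 higher at an unadjusted p under 0.05 and 1 lower, against 3.74% and 7.7% of all genes. The 5 were the homeobox genes Hoxa10 and Hoxa11 (logFC 0.43 each), the nuclear receptor Nr2f2 (0.37), the transcription factor Sox17 (0.32) and the endocytic receptor Lrp2 (0.81), and the lower one was the secreted factor Wnt4 (-0.90). Lrp2 read 1034 to 2371 CPM (median 2002) with the prefix and 373 to 2179.9 CPM (median 993) without it. Hoxa10, needed in the stroma for decidualization, read 101 and 107 CPM in VAS2 and VAS3, 120.4 to 261 CPM in the other libraries without the prefix, and 179 to 283 CPM with it. Without VAS2 and VAS3, Lrp2 alone of the 20 had an unadjusted p under 0.05, and the median was 0.25. By stratum and with all libraries, 0 of the 20 were higher at that p in SVX against INT (median 0.21) and 5 in SVX_VAS against VAS (median 0.35). Of the 13 stromal markers 3 were higher with the 2 libraries in, and 0 higher and 2 lower without them, with a median logFC of 0.25 and 0.03.

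The list for uterine glands and attachment gave 3 higher and 1 lower of 18, or 2 and 2 without VAS2 and VAS3. Higher were Il6st, the shared receptor chain for leukemia inhibitory factor (logFC 0.48, or 0.22 without VAS2 and VAS3), Alox15, a lipoxygenase (0.50, or 0.29), and Hdc, which makes histamine (0.55, or 0.39). Lower was Lifr, the other chain of that receptor (-0.37, or -0.43). The ligand itself, Lif, ranged from 7.55 to 45.4 CPM without the prefix and from 9.35 to 37.8 CPM with it (logFC -0.12, edgeR FDR 0.903). Of 14 retinoid genes 3 were lower, the retinoic acid binding protein Crabp2 (-3.07), the retinol dehydrogenase Dhrs9 (-2.31) and the receptor Rara (-0.22), and 2 were higher, Rdh10 (0.26) and the receptor Rarb (0.36). Crabp2 had 3 counts or fewer in 4 of the 8 libraries with the prefix, and 4, 10 and 8 counts in INT3, INT4 and VAS4. It was 30.9, 16.8 and 24.9 CPM in INT1, INT2 and VAS1, but 5.16 CPM in SVX_VAS2, the library highest in Ltf. With VAS2 and VAS3 left out, 5 of the 14 retinoid genes were lower and 1 higher, with a median logFC of -0.45 in place of -0.29.

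Cytokine transcripts were mostly low. Of 26 cytokines and chemokines 16 were tested, 2 lower and 0 higher, the alarmin Il33 (logFC -1.15, edgeR FDR 0.404) and the T cell attractant Cxcl10 (-0.73, edgeR FDR 0.404). Il33 read 1.12 to 5.06 CPM with the prefix and 1.19 to 11.4 CPM without it. Cxcl10 was highest in VAS2 and VAS3 at 9.70 and 7.99 CPM, and its logFC was -0.22 without them, when 1 of 14 cytokines and chemokines was lower. Neutrophil markers were largely under the filter, with 3 of 12 tested and 2 lower, Csf3r (-0.88), which read 30.9 and 36.0 CPM in VAS2 and VAS3 and 5.65 to 12.6 CPM elsewhere, and Ly6g (-2.12), which read 0.146 to 0.956 CPM with the prefix and 0.171 to 3.21 CPM without it. The logFC of Csf3r was -0.35 without VAS2 and VAS3, and 1 of the 3 was lower.

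Markers that bear on the mating itself were too scarce to test. None of 10 blastocyst, 9 sperm, 10 seminal vesicle secretion or 4 Y chromosome genes passed the filter. Summed over the 8 libraries with and without the prefix, they had 398 and 353, 113 and 73, 16 and 23, and 2 and 2 reads. These lists therefore do not check which surgery a column stands for. The remaining lists are given by their counts at an unadjusted p under 0.05, first with all libraries and then without VAS2 and VAS3. Prostaglandin genes gave 1 higher and 1 lower of 15, then 1 higher and 0 lower. Angiogenesis gave 1 higher and 0 lower of 20, then 0 higher and 1 lower, and matrix remodelling 2 higher and 2 lower of 19, then 1 higher and 0 lower of 18. Fluid and ion transport (2 lower of 13), smooth muscle (2 higher of 10) and endothelium (2 higher of 11) each had 0 in either direction without the 2 libraries. Markers of the oviduct and motile cilia gave 2 higher and 1 lower of 6, then 2 and 2. The list of eosinophils, mast cells and basophils gave 1 higher and 1 lower of 3, then 1 and 1 of 2. Red blood cell markers gave 0 of 5 in both fits, and those of mesothelium and fat 0 of 4, then 1 higher.

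**Figure D5:**
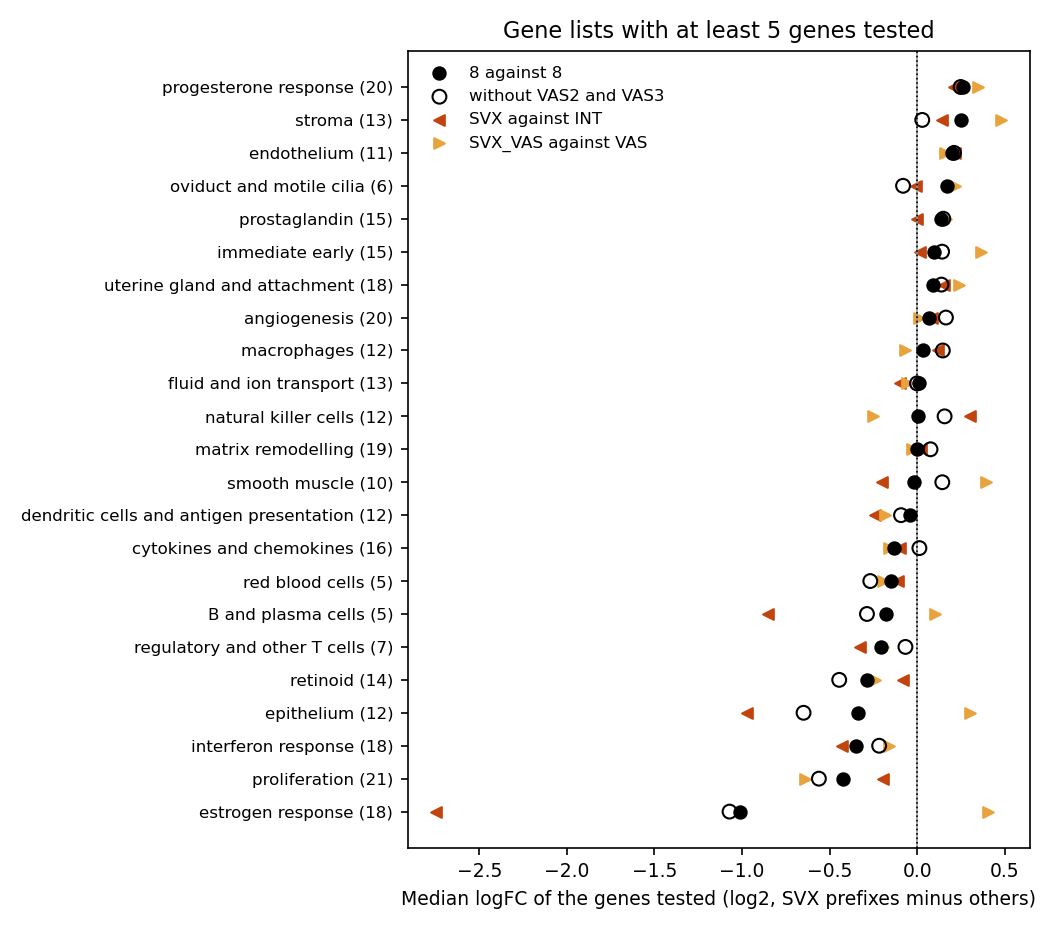
Median logFC (log2, SVX prefixes minus the others) of each list with at least 5 genes tested, the number tested in parentheses, for the 8 against 8 (filled), without VAS2 and VAS3 (open), and in the 2 strata (triangles). The estrogen response list has medians of -2.75 and 0.40 in the strata, and the proliferation list has -0.19 and -0.64.

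The effect of the SVX prefix was then compared between the strata. The interaction passed in 0 of 17222 genes (0%, edgeR), with 972 at an unadjusted p under 0.05 (5.64%). Its smallest p belonged to Ccdc15, a coiled-coil protein gene, which read 11.04, 14.9, 15.2 and 14.2 CPM in INT, 19.9, 16.7, 14.6 and 14.9 CPM in SVX, 18.8, 21.6, 19.6 and 19.4 CPM in VAS, and 14.8, 14.3, 12.8 and 10.1 CPM in SVX_VAS. VAS lay above SVX_VAS throughout, while INT and SVX overlapped, and the interaction logFC was -0.86 (SE 0.19, edgeR FDR 0.697). The other 9 of the 10 smallest p, Syde2, Sclt1, Nemp2, Rttn, Usp49, Zbed5, Saal1, Bach2 and Kcnn3, also had a negative interaction logFC, from -0.41 to -0.89, with the same FDR. Their logFC was 0.02 to 0.37 in SVX against INT and -0.60 to -0.33 in SVX_VAS against VAS. Without VAS2 and VAS3 the interaction passed in 0 of 16949 genes (0%), with a lowest FDR of 0.999 (edgeR).

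The split by VAS in the prefix, which by the titles would be the seminal vesicle factor, also gave 0 passing genes (0%, edgeR), with 518 at an unadjusted p under 0.05 (3.01%). Without VAS2 and VAS3 that split gave 0 of 16949 genes (0%, edgeR).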

How the data were processed

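Endometrial total RNA was sequenced with a stranded, paired-end protocol. Per the labels and the study's methods, the authors trimmed reads, aligned them to GRCm38 with STAR and deposited raw read counts per gene from featureCounts. The versions of STAR and featureCounts and the strand setting are not given in the sources used here, and 0 columns were left unused. The counts of 49089 genes were filtered to 3 CPM in 3 of 19 libraries (17222 genes, 35.1%) and scaled by TMM. Contrasts were fitted over 5 groups with edgeR 4.0.16 (quasi-likelihood test, Benjamini-Hochberg FDR) in R 4.3.3, with the 8 against 8 as the mean of the 2 strata. limma 3.58.1, DESeq2 1.42.0, other filters, scalings and designs, a replicate block and leaving out libraries were alternatives. log2 CPM used a prior count of 2. The edgeR test of the 8 against 8 was checked on simulated counts with the same spread for all genes, and the other tests were not. Named genes were mainly the 10 of smallest p in each direction and 10 for the interaction, plus list members. Others were named because their libraries did not overlap, for a DESeq2 call or after their values were seen. The members and lists were chosen with earlier results of these data known. Gene positions and exon overlaps came from GENCODE M21. No 2 libraries held identical counts.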

Additional observations from a re-analysis of the deposited data

Results flagged for a closer look

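Among 96 groups of 4 libraries (24 values in 4 groups), 8 had 1 library whose gap to its nearest neighbour exceeded Dixon's critical value as a share of the group's range, and chance gives about 1 in 20. SVX1 was the highest of SVX on the second component (0.909) and on the third (0.916), and the lowest of SVX in log2 CPM of Lbh (0.87). VAS4 was the highest of VAS for Nr4a3 (0.83), D430036J16Rik (0.834) and Il17rb (0.883), all of them higher with SVX in the prefix. INT2 was the lowest of INT for Ccn2 (0.868), and SVX_VAS1 the highest of SVX_VAS for H2-Q7 (0.845).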

How the results depend on the processing

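The 20 genes of smallest p kept their direction under every alternative that gave a value, as did the 10 interaction genes. Cd3e and Cadps gave a value in 27 of 35 alternatives. All these genes were picked by p from the same counts that the alternatives refit, so an unchanged direction is not independent support. The number of calls in the 8 against 8 was 0 with edgeR and 20 with DESeq2, 1052 with limma-voom and 3177 with limma-voom and sample quality weights, 1 with 2 groups of 8, 1 in the additive design and 1 with DESeq2 without VAS2 and VAS3, an alternative added after the data were seen. Leaving out 1 library gave 0 to 113, with 113 without VAS4 and 1 without INT4. SVX against INT had 3 calls with DESeq2, and without VAS2 and VAS3 it had 6 with DESeq2 and 5 with quality weights (both added after the data were seen). SVX_VAS against VAS had 26 with DESeq2, 1804 with limma-voom, 4636 with quality weights and 0 to 573 when 1 library was left out (573 without VAS4). The interaction had 642 with limma-voom and 5001 with quality weights, and the split by VAS had 746 and 2432. List members called in the 8 against 8 were 1 with DESeq2, 2 with limma-voom, 89 with quality weights and 0 to 10 when 1 library was left out. When 1 library was left out, lower T cell genes numbered 1 to 3 and higher progesterone response genes 2 to 8 at an unadjusted p under 0.05. The cause of these differences was not tested. Of the genes at an unadjusted p under 0.05, 67.3% were lower, against 27.5% with limma-voom and 42.1% with quality weights.

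Same-numbered libraries correlated between -0.688 and 0.583 in their deviations from the group means. Values this wide cannot decide whether replicate numbers pair the libraries. With the replicate number as a block, 0 genes passed and 2066 had an unadjusted p under 0.05, with a lowest FDR of 0.313 (edgeR). At the depths of the mated libraries, 3 counts stand for 0.146 to 0.237 CPM before TMM scaling, so that T cell and cytokine transcripts rest on few reads.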
